A study of Mus musculus with 12 samples.

Results

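The heat shock chaperones described here are 10 genes chosen by symbol from the 23420 symbols of the expression table: Hspa1a, Hspa1b, Hspa8 and Hspa5 of the HSP70 family, Hsp90aa1 and Hsp90ab1 of the HSP90 family, the J-domain proteins Dnaja1 and Dnajb1, and the mitochondrial pair Hspe1 and Hspd1. All 10 were above 0 in each of the 12 libraries, and all 10 passed the filter on low values. The libraries came from 100 cells per tube, taken from mouse epidermis and sorted for CD45, CD11b and MHCII and against CD3. The 4 groups of 3 libraries were Cbfbeta2 knockout at 1.5 months after birth (1.5M KO), wild type at 1.5 months (1.5M wt), Cbfbeta2 knockout at day 5 after birth (P5 KO) and wild type at day 5 (P5 wt). Cbfbeta2 is a splice form of the core-binding factor beta subunit, the partner of Runx transcription factors, and the sorted surface phenotype is that of Langerhans cells and related myeloid cells of the epidermis. According to the labels the 3 libraries of each group were separate preparations, with no word on separate mice, so p-values measure the spread between preparations, which may be technical.

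Chaperones bind unfolded or partly folded proteins and keep them from aggregating. HSP70 proteins bind and release short exposed stretches in a cycle driven by ATP, J-domain proteins deliver clients to HSP70 and speed that cycle, and HSP90 proteins act later on clients such as kinases and steroid receptors. In heat or other protein stress the transcription factor HSF1 binds heat shock elements, which are repeats of a short unit that read GAA or TTC in turn, while the endoplasmic reticulum has its own route, the unfolded protein response. Isolation of cells from tissue by warm digestion is known to raise RNA of some of these genes, together with immediate early genes such as Fos.

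Values are scaled molecule counts, that is molecules of a gene scaled so that each library has the same total of 37092. Depth was 74620 to 77419 molecules per library in 1.5M KO and 40254 to 51848 in 1.5M wt. At P5 it was 30913 to 51001 in KO and 34192 to 52208 in wt. Cbfb, the gene of the deleted form, lay between 0.994 and 2.40 in 1.5M KO and between 7.15 and 13.8 in 1.5M wt, and between 1.45 and 3.63 in P5 KO and between 3.91 and 4.97 in P5 wt. A tag at the 3' end does not tell the deleted form from others. All 8 listed genes of the sorted phenotype were detected in every group, and of 5 T cell genes (the gate was against CD3) Cd3e, Cd3g and Lck were at 0 in all 12 libraries. Cd2, a T cell adhesion gene, had 2.72, 0.727 and 1.20 in P5 KO and Cd3d 1.20 in P5 KO library 3, and both were at 0 in the 9 others; the list summed to 0.727 to 2.72 in P5 KO and to 0 in P5 wt. Cd207, which encodes langerin and defines Langerhans cells, lay between 18.7 and 24.9 in 1.5M KO and between 189 and 252 in 1.5M wt, was at 0 in all 3 P5 KO libraries and lay between 0.710 and 2.93 in P5 wt. The summed level of 8 macrophage and monocyte genes was 362.8 to 395.3 in 1.5M KO and 7.55 to 12.9 in 1.5M wt, and 96.7 to 111.3 in P5 KO and 86.0 to 106.6 in P5 wt. The P5 KO libraries stood apart by 15 keratinocyte genes summing to 244.9 to 755.1, against 75.2 to 109.0 in P5 wt, and by 8 neutrophil genes summing to 42.9 to 241.2, against 0 to 3.91 in P5 wt. The 6 listed erythroid genes summed to 0.792 to 266.9 in P5 KO and to 0 to 2.84 in P5 wt. In sorted pools, fewer cells of a type and less RNA per cell cannot be told apart.

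Of the 5 members whose sequences are shown, Hspa1a, Hspa1b, Dnaja1 and Hspa5 were called in a comparison, and Hspe1 in none. The sequences are shown because the windows carry different stress elements. Each is the 250 bases before an annotated start, from RefSeq for GRCm38.p6, read 5' to 3' on the strand of the gene. Capitals mark matches to the heat shock element with 2 units (GAANNTTC or TTCNNGAA) or 3 units (GAANNTTCNNGAA or TTCNNGAANNTTC), and in Hspa5 the endoplasmic reticulum stress element (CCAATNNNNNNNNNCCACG), all searched on both strands. The windows are chr17:34972157-34972406 (minus strand) for Hspa1a, chr17:34959239-34959488 (minus) for Hspa1b, chr4:40722218-40722467 (plus) for Dnaja1, chr1:55087898-55088147 (plus) for Hspe1 and chr2:34771840-34772089 (plus) for Hspa5.
Hspa1a: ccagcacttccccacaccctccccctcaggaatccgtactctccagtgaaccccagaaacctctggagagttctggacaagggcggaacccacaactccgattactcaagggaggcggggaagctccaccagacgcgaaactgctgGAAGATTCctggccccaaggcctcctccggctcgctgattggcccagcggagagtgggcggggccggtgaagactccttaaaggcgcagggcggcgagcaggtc
Hspa1b: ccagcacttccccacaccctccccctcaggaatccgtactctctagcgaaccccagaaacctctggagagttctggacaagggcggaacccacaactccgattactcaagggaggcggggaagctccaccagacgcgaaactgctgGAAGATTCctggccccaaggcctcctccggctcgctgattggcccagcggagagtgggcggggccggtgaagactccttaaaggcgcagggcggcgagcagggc
Dnaja1: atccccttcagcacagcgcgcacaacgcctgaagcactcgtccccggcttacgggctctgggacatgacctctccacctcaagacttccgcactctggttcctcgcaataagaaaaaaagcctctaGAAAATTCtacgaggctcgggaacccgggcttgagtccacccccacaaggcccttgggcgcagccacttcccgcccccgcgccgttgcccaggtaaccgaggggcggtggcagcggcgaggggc
Hspe1: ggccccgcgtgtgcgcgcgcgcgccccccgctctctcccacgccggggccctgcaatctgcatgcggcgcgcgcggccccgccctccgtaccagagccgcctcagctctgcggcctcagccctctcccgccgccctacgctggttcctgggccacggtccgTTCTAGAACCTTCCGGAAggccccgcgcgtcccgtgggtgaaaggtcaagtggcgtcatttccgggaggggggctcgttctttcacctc
Hspa5: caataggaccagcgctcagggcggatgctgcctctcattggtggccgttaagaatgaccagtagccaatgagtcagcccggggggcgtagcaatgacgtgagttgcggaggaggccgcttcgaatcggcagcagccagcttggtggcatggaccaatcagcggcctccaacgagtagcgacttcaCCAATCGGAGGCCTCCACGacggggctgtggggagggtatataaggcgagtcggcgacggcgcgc

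The Hspa1a and Hspa1b windows differed at 3 of 250 positions, counted from 1 at the 5' end with the Hspa1a base first, namely C44T, T47C and T249G. Both held the same 2-unit element at bases 147 to 154, beginning 104 bases before the start. Dnaja1 held 1 such element, at bases 127 to 134 of the window shown, and 0 in its other windows. A 2-unit element was present in 12.8% of the 32851 promoter windows of the same length, so that holding 1 is common. Hspe1 and Hspd1 lie head to head, and a window of each covered the same 18 bases, chr1:55088059-55088076, with 4 units in a row. That run gives 3 overlapping 2-unit matches and 2 overlapping 3-unit matches. A 3-unit match was present in 0.466% of all windows, and in no other window of a member. Hspa5 held 1 endoplasmic reticulum stress element, at bases 186 to 204, against 0.113% of all windows, and its first 5 letters are 1 of the 4 CCAAT boxes of that window. Both Dnajb1 windows held 0 exact matches to the 2-unit or 3-unit element, and units with a changed base were not searched. The second of them, chr8:83608298-83608547, lies inside the gene as annotated by GENCODE (83608193 to 83612653). So do all Dnaja1 windows, the one shown included (gene 40722150 to 40737149). The Hspd1 window with the 4 units also lies inside its gene (55077835 to 55088243). The Hspa5 element, chr2:34772025-34772043, lies after the GENCODE start of that gene, 34771970. These elements lie before a RefSeq start but not upstream of the gene as GENCODE annotates it. In all, 7 of the 10 members had promoter windows in the table, 11 windows together, and Hspa8, Hsp90aa1 and Hsp90ab1 were not matched.

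Together the 10 genes took 0.536% to 0.566% of the molecules in 1.5M KO and 0.714% to 0.763% in 1.5M wt. At P5 they took 0.531% to 0.595% in KO and 0.611% to 0.759% in wt. Their summed scaled count was 199, 209 and 210 in the 1.5M KO libraries, against 278, 283 and 265 in 1.5M wt, and 197, 221 and 208 in the P5 KO libraries, against 282, 227 and 231 in P5 wt. In these scaled counts the knockout libraries lay below the wild-type libraries at both ages, with no overlap. No test was made on the sum. At P5 the closest were 221 in KO library 2 and 227 in wt library 2. Median-of-ratios scaling divides these libraries by 1.01 and 1.10. After that division KO library 2 lies above wt library 2, so under that scaling the P5 groups overlap. The sum was uneven in its parts: Hspa8 alone averaged 92.1 over the 12 libraries, Hsp90ab1 34.4, Hspa1b 31.4 and Hspa1a 24.9, while Hspd1 averaged 3.06. These averages are scaled molecule counts, which are not divided by gene length. Hspa1a and Hspa1b made up 10.3%, 8.57% and 12.8% of the sum in 1.5M KO, against 30.5%, 28.7% and 19.5% in 1.5M wt. At P5 they made up 25.8%, 27.7% and 24.0% in KO, against 38.6%, 23.4% and 29.9% in wt, and these ranges overlapped.

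**Figure D1:**
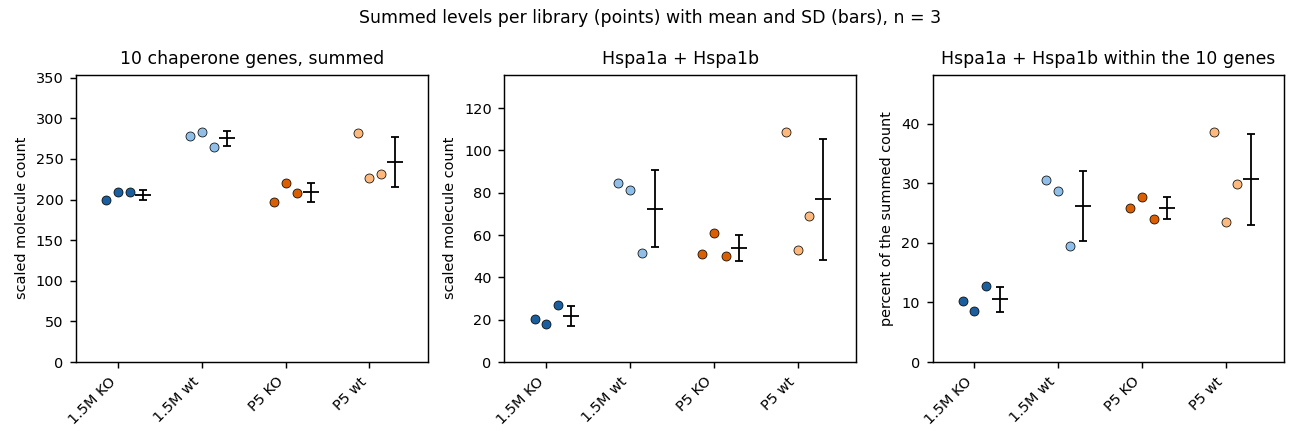
Scaled molecule counts per library of the 10 chaperone genes summed (left) and of Hspa1a plus Hspa1b (middle), and the percent of the 10-gene sum held by that pair (right), for 1.5M KO, 1.5M wt, P5 KO and P5 wt. Points are libraries and bars show mean and SD over 3 libraries. The 3 libraries of 1.5M KO lie between 17.9 and 26.8 for the pair, below the 9 others.

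What the knockout does to these genes at 1.5 months was asked by comparing 1.5M KO with 1.5M wt. Hspa1a, Hspa1b and Dnaja1 were lower in 1.5M KO, with log2 fold changes of -1.4998, -1.82 and -2.20, and the other 7 members did not pass the test. Thus 3 of 10 members were called lower and 0 higher by limma, against 5.28% of the 10023 genes tested, 2.04% lower and 3.24% higher. Hspa1a and Hspa1b may share molecules. With this pair summed into 1 row, 2 of 9 were called lower and 0 higher. In that fit 203 of 10022 genes were called lower and 323 higher. By range alone, 5 members lay lower in 1.5M KO with no overlap (Hspa1a, Hspa1b, Hspa8, Hsp90aa1, Dnaja1) and 2 higher (Hspa5, Hspd1), against 7.18% of all genes lower and 13.9% higher, 21.1% together. The median log2 fold change of the 10 was -0.17, and that of all genes 0.09. At P5 the comparison of KO with wt called 0 of 10 members by limma, against 1.8% of all genes, 1.15% higher and 0.649% lower. It also gave 0 at an unadjusted p under 0.05, against 12.8% of all genes. With voom weights it gave 0 calls, against 1.38% of all genes. At an unadjusted p under 0.05 voom gave 1 of 10 members, Hspa1b, against 1088 of 10023 genes. All 10 ranges overlapped at P5, where 12.2% of all genes did not overlap, 6.23% higher and 6.02% lower.

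**Figure D2:**
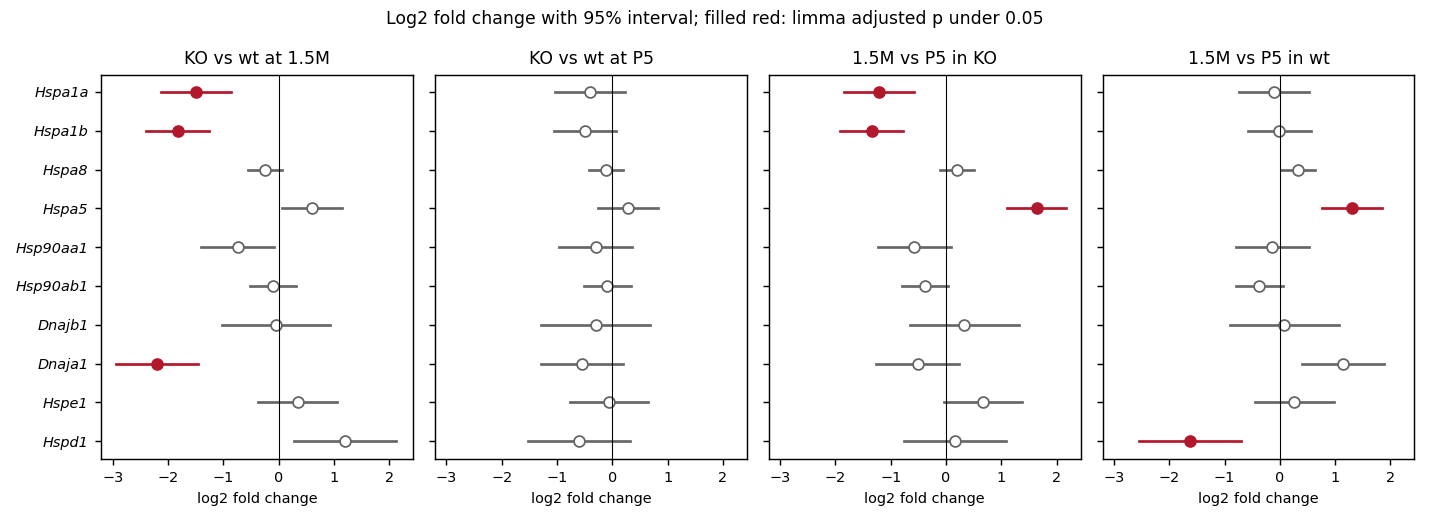
Log2 fold change of each of the 10 genes with its 95% interval from limma, on log2(scaled count + 1), for KO against wt at 1.5M and at P5 and for 1.5M against P5 in KO and in wt. Filled red points have an adjusted p under 0.05. Hspa1a, Hspa1b and Dnaja1 lie left of 0 in the first panel, none is red in the second, and Hspa5 lies right of 0 in both age panels.

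Hspa1a and Hspa1b encode the stress-inducible cytosolic HSP70 and are closely related copies that differ at their 3' ends. They lie on chromosome 17 (GENCODE M21 on GRCm38: 34969190 to 34972156 and 34956436 to 34959238, both minus strand), 9951 bases apart. Hspa1a had 6.39, 8.95 and 16.8 scaled counts in 1.5M KO, against 34.1, 36.7 and 21.3 in 1.5M wt. All 3 knockout libraries were lower than all 3 wild-type libraries, the closest being 16.8 and 21.3. The means were 10.7 ± 5.41 in 1.5M KO and 30.7 ± 8.24 in 1.5M wt (SD, n = 3 each), a log2 fold change of -1.4998 (SE 0.30, with adjusted p = 0.00279 by limma). Hspa1b had 14.1, 8.95 and 10.1 in 1.5M KO, against 50.7, 44.6 and 30.2 in 1.5M wt, a wider gap. Its means were 11.02 ± 2.69 in 1.5M KO and 41.8 ± 10.5 in 1.5M wt (log2 fold change -1.82, SE 0.27, with adjusted p = 0.000107). The Hspa1b call held in all 9 other settings and with each of the 6 libraries left out. The Hspa1a call was lost when all libraries were thinned to 30797 molecules (-1.54, adjusted p = 0.0711).

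At P5 the same genes did not pass the test. Hspa1a had 25.0, 22.5 and 25.6 scaled counts in P5 KO, against 48.3, 24.4 and 28.6 in P5 wt (log2 fold change -0.40, 95% interval -1.03 to 0.23, adjusted p = 0.658 by limma). Hspa1b had 25.9, 38.5 and 24.4 in P5 KO, against 60.4, 28.7 and 40.4 in P5 wt (-0.49, -1.06 to 0.07, adjusted p = 0.474). The first P5 wt library was the highest of the 12 for both genes, and the groups overlapped. The difference between the knockout effects at 1.5M and at P5 was -1.10 for Hspa1a (95% interval -1.995 to -0.21, adjusted p = 0.242) and -1.33 for Hspa1b (-2.13 to -0.52, adjusted p = 0.0848). Neither passed the threshold. The Hspa1b difference was called without P5 wt library 1 (-1.60, adjusted p = 0.0389), without 1.5M KO library 1 (-1.503, 0.0422) and with voom (-1.37, 0.0265).

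With age, Hspa1b was lower in 1.5M KO than in P5 KO (11.02 ± 2.69 in 1.5M KO and 29.6 ± 7.78 in P5 KO, log2 fold change -1.34, SE 0.27, with adjusted p = 0.00589 by limma). Hspa1a was also called lower (10.7 ± 5.41 in 1.5M KO and 24.4 ± 1.61 in P5 KO, -1.21, SE 0.30, with adjusted p = 0.0273), but the call held in only 5 of 10 other settings. Any 1 of P5 KO libraries 1, 2 and 3 (adjusted p = 0.0882, 0.0616 and 0.0819) or of 1.5M KO libraries 1 and 2 (0.140 and 0.0815) ended the call when left out. In wild type neither gene was called with age: Hspa1a averaged 30.7 ± 8.24 in 1.5M wt and 33.8 ± 12.8 in P5 wt (-0.11, 95% interval -0.74 to 0.52), and Hspa1b 41.8 ± 10.5 in 1.5M wt and 43.2 ± 16.0 in P5 wt (-0.01, -0.58 to 0.56). With median-of-ratios scaling both wild-type values changed sign, to 0.11 and 0.21. The comparisons share libraries, so that the 1.5M KO libraries enter both the knockout and the age contrast.

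Because Hspa1a and Hspa1b are alike, molecules may have been shared between them. In 6 of 12 libraries both genes held a fraction of a molecule, the same fraction in each, 0.5 in 2 libraries and 0.33 in 4. In those last 4 libraries Hspa1l, the third gene of the cluster, held 0.33 of a molecule, and it was at 0 in the other 8. An even number of shared molecules divided equally leaves no fraction, so the files do not show how many were shared. In the annotated transcripts 58.8% of the 50-base windows of Hspa1a-201 occur in Hspa1b-201, but 0% of those in its last 500 bases. The ratio of Hspa1a to Hspa1b lay between 0.454 and 1.67 with a median of 0.812, and was below 1 in 9 libraries, at 1 in 1 and above 1 in 2. Summed into 1 row, the pair had 20.5, 17.9 and 26.8 in 1.5M KO, against 84.8, 81.3 and 51.5 in 1.5M wt. That sum does not depend on how molecules were divided between the pair, and its log2 fold change was -1.68 (SE 0.24, with adjusted p = 5.3e-05 by limma). At P5 the sum had 50.9, 61.1 and 49.99 in KO, against 109, 53.2 and 69.0 in wt (-0.45, adjusted p = 0.454). Between ages it fell in KO (-1.29, adjusted p = 0.00228) and gave -0.06 in wt (adjusted p = 0.960), and the difference between the knockout effects was -1.23 (adjusted p = 0.0612).

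**Figure D3:**
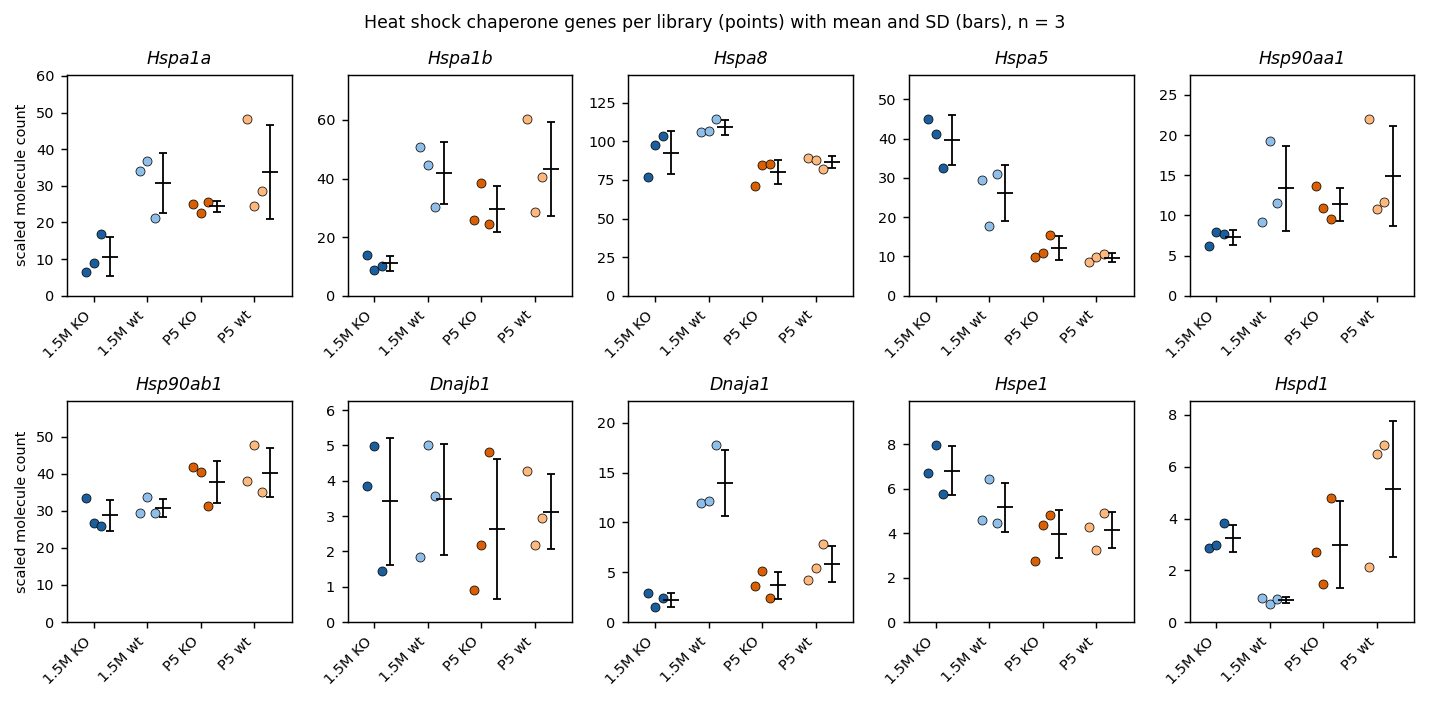
Scaled molecule count of each chaperone gene in each library (points), with mean and SD over 3 libraries (bars), for 1.5M KO, 1.5M wt, P5 KO and P5 wt. Each panel has its own axis from 0. Hspa1a and Hspa1b are lowest in 1.5M KO, Dnaja1 is highest in 1.5M wt, Hspa5 is higher at 1.5M than at P5, and Hspd1 is lowest in 1.5M wt.

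Dnaja1 and Dnajb1 encode J-domain co-chaperones of cytosolic HSP70. Dnaja1 (chromosome 4, 40722150 to 40737149, plus strand) had 2.88, 1.49 and 2.40 scaled counts in 1.5M KO, against 11.98, 12.2 and 17.8 in 1.5M wt. The groups were far apart relative to their spread, with means of 2.25 ± 0.704 in 1.5M KO and 13.97 ± 3.29 in 1.5M wt, from 14 and 50 molecules in all. The log2 fold change was -2.20 (SE 0.36, with adjusted p = 0.000272 by limma), and the call held in all 10 other settings and with each of the 6 libraries left out. At P5 it had 3.63, 5.09 and 2.40 in KO, against 4.26, 5.42 and 7.81 in wt, with overlap (-0.55, 95% interval -1.29 to 0.20, adjusted p = 0.583). The difference between the knockout effects was -1.66 (95% interval -2.71 to -0.60, adjusted p = 0.105), and it was called with a pseudocount of 10 (adjusted p = 0.0444). In wild type Dnaja1 lay higher at 1.5M than at P5 in every library. Its log2 fold change there was 1.14 (SE 0.36, with adjusted p = 0.0685), and it was called under 4 of 10 other settings, including median-of-ratios scaling (1.34, adjusted p = 0.0310). In KO the age difference was -0.52 (95% interval -1.26 to 0.23, adjusted p = 0.594).

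Dnajb1, the J-domain partner of inducible HSP70 that is itself a heat shock gene, stayed low and uneven. It had 3.84, 4.97 and 1.44 scaled counts in 1.5M KO, against 1.84, 5.01 and 3.55 in 1.5M wt, and 0.908, 2.18 and 4.80 in P5 KO, against 4.26, 2.17 and 2.93 in P5 wt. All groups overlapped. It came from 8 to 21 molecules per group, and the knockout effect at 1.5M was -0.048 with a 95% interval of -1.03 to 0.93, so changes of that size in either direction are not excluded.

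Hspa8 encodes the constitutive cytosolic HSP70 (chromosome 9, 40800984 to 40810087, plus strand) and was the member with the most molecules in all 12 libraries. It had 77.2, 97.4 and 103 scaled counts in 1.5M KO, against 106, 107 and 115 in 1.5M wt, and 70.8, 84.4 and 85.2 in P5 KO, against 89.5, 87.9 and 82.0 in P5 wt. The 1.5M groups did not overlap, but by little, and the P5 groups did. The knockout effect was -0.24 at 1.5M (95% interval -0.55 to 0.07, adjusted p = 0.528 by limma) and -0.11 at P5 (-0.42 to 0.20, adjusted p = 0.804). At 1.5M this interval excludes a fall as large as the -1.4998 of Hspa1a. In wild type Hspa8 was higher at 1.5M than at P5 in every library (0.33, 95% interval 0.02 to 0.64), which did not pass (adjusted p = 0.236), and passed under median-of-ratios scaling (0.55, adjusted p = 0.0295).

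Hsp90aa1 and Hsp90ab1 encode the inducible and the constitutive cytosolic HSP90. Hsp90aa1 (chromosome 12, 110690605 to 110702728, minus strand) had 6.23, 7.95 and 7.67 scaled counts in 1.5M KO, against 9.21, 19.3 and 11.6 in 1.5M wt. The groups did not overlap, as for Hspa1a, but the log2 fold change of -0.74 did not pass (95% interval -1.40 to -0.08, adjusted p = 0.251 by limma). At P5 it had 13.6, 10.9 and 9.60 in KO, against 22.02, 10.8 and 11.7 in wt, with overlap (-0.30, adjusted p = 0.754). Hsp90ab1 (chromosome 17, 45567775 to 45573271, minus strand) had 33.6, 26.8 and 25.9 in 1.5M KO, against 29.5, 33.6 and 29.3 in 1.5M wt, and 41.8, 40.4 and 31.2 in P5 KO, against 38.0, 47.7 and 35.2 in P5 wt. Neither pair of groups was apart, and the knockout effect was -0.10 at 1.5M (95% interval -0.52 to 0.32) and -0.09 at P5 (-0.51 to 0.33). The constitutive form lay lower at 1.5M than at P5 in all wild-type libraries, without passing the test (-0.37, adjusted p = 0.349).

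Hspa5 encodes BiP, the HSP70 of the endoplasmic reticulum (chromosome 2, 34771970 to 34777547, plus strand), and was higher at 1.5M than at P5 in both genotypes. It had 45.1, 41.3 and 32.6 scaled counts in 1.5M KO and 29.5, 17.9 and 31.1 in 1.5M wt, against 9.99, 10.9 and 15.6 in P5 KO and 8.53, 9.76 and 10.7 in P5 wt. Each 1.5M library was above every P5 library. In KO the means were 39.6 ± 6.40 at 1.5M and 12.2 ± 3.01 at P5 (log2 fold change 1.64, SE 0.26, with adjusted p = 0.000402 by limma), and in wt 26.2 ± 7.21 at 1.5M and 9.68 ± 1.11 at P5 (log2 1.31 with SE 0.26 and adjusted p = 0.00284). Both calls held in all 10 other settings and with each library left out. The 1.5M KO libraries also lay above the 1.5M wt libraries, with 32.6 and 31.1 as the closest, but this did not pass (0.61, 95% interval 0.07 to 1.15, adjusted p = 0.249). At P5 the knockout effect was 0.28 (-0.26 to 0.83, adjusted p = 0.719). Hspa5 was 1 of 3 members called with age in KO (1 higher, 2 lower), against 3.14% of all genes, 1.72% higher and 1.43% lower. In wt it was 1 of 2 (1 higher, 1 lower), against 5.21%, 2.36% higher and 2.84% lower. The wt split was 3 higher and 0 lower with median-of-ratios scaling, where 286 genes were higher and 183 lower of 10023. It was 2 higher and 0 lower with voom, where 244 were higher and 393 lower of 10023. The 6 libraries alone also gave 2 and 0, where 201 were higher and 214 lower of 7585. By range, 2 members lay higher and 3 lower with age in KO with no overlap, against 18.1% of all genes in either direction, and 3 higher and 2 lower in wt, against 19.2%.

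Hspd1 and Hspe1 encode HSP60 and HSP10, the barrel and the lid of the mitochondrial chaperonin. Their genes lie on chromosome 1 on opposite strands (55077835 to 55088243, minus, and 55088132 to 55091307, plus) and overlap by 112 bases, and whether the authors counted by strand was not stated in the sources used here. Hspd1 had 2.88, 2.98 and 3.83 scaled counts in 1.5M KO, against 0.921, 0.715 and 0.888 in 1.5M wt, and 2.72, 1.45 and 4.80 in P5 KO, against 2.13, 6.51 and 6.84 in P5 wt. The value in each 1.5M wt library was 1 molecule. Hspd1 was called lower in 1.5M wt than in P5 wt (log2 fold change -1.63, SE 0.45, with adjusted p = 0.0329 by limma), from 3 against 16 molecules, a ratio of 0.174 with an exact 95% counting interval of 0.0325 to 0.609. That call held with 1 of the 6 libraries left out and in 6 of 10 other settings. Leaving out 1.5M wt library 1, 2 or 3 (adjusted p = 0.0725, 0.0909 and 0.0773) or P5 wt library 2 or 3 (0.121 and 0.132) ended it. The 1.5M KO libraries lay above the 1.5M wt libraries, from 20 against 3 molecules (ratio 3.89, counting interval 1.15 to 20.4), and this did not pass (log2 1.19 with SE 0.45 and adjusted p = 0.156).

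Hspe1 had 6.71, 7.95 and 5.75 scaled counts in 1.5M KO, against 4.61, 6.44 and 4.44 in 1.5M wt, and 2.72, 4.36 and 4.80 in P5 KO, against 4.26, 3.25 and 4.88 in P5 wt. The knockout and wild-type ranges overlapped at both ages. In KO every 1.5M library was above every P5 library, with means of 6.81 ± 1.10 at 1.5M and 3.96 ± 1.09 at P5 (log2 fold change 0.67, SE 0.34, with adjusted p = 0.393 by limma). Hspe1 and Hspd1, whose products work as 1 complex, had a correlation of -0.14 across the 12 libraries, and the highest between members was 0.86, of Hspa1a with Hspa1b. The lowest was -0.80, of Hspa5 with Hsp90ab1. These correlations are of log2 values in libraries that share their scaling and groups, and they describe these libraries.

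The difference between the knockout effects at 1.5M and at P5 called 0 of 10 members by limma, against 2.0% of all genes, 1.32% higher and 0.678% lower. At an unadjusted p under 0.05 it gave 4 members, against 13.3% of all genes, namely Hspa1a, Hspa1b, Dnaja1 and Hspd1, the last with a difference of 1.79 (SE 0.63, with adjusted p = 0.173), and voom called 1, Hspa1b, against 3.47% of all genes. A knockout effect on these genes that passed at 1.5M and not at P5 was therefore not shown to differ between the ages. For Hspa8, Hspa5, Hsp90aa1, Hsp90ab1, Dnajb1 and Hspe1 the differences lay between -0.43 and 0.41.

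Chaperone genes outside the 10 were examined in the same fit. Of 20 other J-domain genes tested, 22 cytosolic co-chaperone and exchange factor genes and 8 subunit genes of the chaperonin TRiC, 0 were called at 1.5M or at P5 by limma. Their median log2 fold changes at 1.5M were 0.06, 0.29 and 0.49, against 0.09 over all genes. Dnajb6, a J-domain gene and the most abundant of its list, had 3.39 ± 2.18 in 1.5M KO and 10.2 ± 2.54 in 1.5M wt, and did not pass (log2 -1.45 with SE 0.44 and adjusted p = 0.0602). Dnajc8, the next in level, had 5.68 ± 1.14 in 1.5M KO and 5.57 ± 1.34 in 1.5M wt. Of 11 other HSP70, HSP110 and HSP90 family genes, Hsp90b1, the HSP90 of the endoplasmic reticulum, was called higher in 1.5M KO, with 18.0 ± 3.23 against 8.65 ± 4.60 in 1.5M wt (log2 1.06 with SE 0.31 and adjusted p = 0.0488). That call held in 4 of 10 other settings and only without 1.5M wt library 1 among the 6 libraries left out, the other 5 giving adjusted p from 0.0583 to 0.260. Hspa9, the mitochondrial HSP70, had 6.81 ± 2.58 in 1.5M KO and 3.12 ± 1.19 in 1.5M wt (log2 0.90 with SE 0.37 and adjusted p = 0.217).

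Among 22 tested genes of endoplasmic reticulum chaperones and the unfolded protein response, a list without Hspa5, 2 were called higher and 0 lower in 1.5M KO. Over all genes 3.24% were called higher and 2.04% lower. The 2 genes of the list follow. These were Hsp90b1 and Edem1, which marks misfolded glycoproteins for disposal, with 8.71 ± 2.45 in 1.5M KO and 2.002 ± 1.48 in 1.5M wt (log2 1.78 with SE 0.41 and adjusted p = 0.00860 by limma). The Edem1 call was lost without 1.5M KO library 1 (adjusted p = 0.0625) and without 1.5M wt library 3 (0.0589). The list median was 0.49, against 0.09 over all genes, with 16 of 22 values above 0. Calr and P4hb, a lectin chaperone and a disulfide isomerase and the most abundant of the list, did not pass (0.75, adjusted p = 0.172, and 0.81, adjusted p = 0.0765). At P5 0 of the 22 were called, with a median of 0.09. With age, Herpud1, a membrane protein of the degradation route, rose in KO to 14.8 ± 8.04 at 1.5M, against 1.89 ± 0.477 at P5 (log2 2.35 with SE 0.46 and adjusted p = 0.00352), a call lost by thinning (1.78, adjusted p = 0.142). In wt Atf4, a transcription factor of the stress response, rose to 15.1 ± 5.36 at 1.5M, against 5.28 ± 2.87 at P5 (log2 1.41 with SE 0.37 and adjusted p = 0.0232). Leaving out 1.5M wt library 1 or 2 (adjusted p = 0.105 and 0.104) or P5 wt library 2 (0.128) ended the Atf4 call.

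With age in wild type, 2 of 22 co-chaperone genes were called higher and 0 lower, against 2.36% of all genes higher and 2.84% lower. Ptges3, which encodes the HSP90 co-chaperone p23, had 11.03 ± 1.65 in 1.5M wt and 3.88 ± 1.77 in P5 wt (log2 1.37 with SE 0.35 and adjusted p = 0.0202 by limma). Bag3, an HSP70 exchange factor, had 3.87 ± 1.91 in 1.5M wt and 0.237 ± 0.410 in P5 wt (log2 1.94 with SE 0.53 and adjusted p = 0.0329). The P5 wt mean of Bag3 is below 0.895, the scaled count of 3 molecules over the 3 libraries of that group. Ptges3 was not called when 1.5M wt library 2 or 3 (adjusted p = 0.0673 and 0.0822) or P5 wt library 3 (0.104) was left out. Bag3 was not called when 1.5M wt library 1 or 2 (0.141 and 0.111) or P5 wt library 2 or 3 (0.0923 and 0.0932) was left out. Tcp1, a TRiC subunit, was the only 1 of 8 called, lower in 1.5M wt (log2 -1.18 with SE 0.32 and adjusted p = 0.0328), and held with 1 of 6 libraries left out, the other 5 giving adjusted p from 0.0738 to 0.106. In KO 0 of the 22 and 0 of the 8 were called with age. Of 9 small heat shock protein genes 3 were tested, and Hspb1, which keratinocytes also express, was lower in 1.5M KO, with 0.160 ± 0.277 against 4.77 ± 1.42 in P5 KO (log2 -2.31 with SE 0.59 and adjusted p = 0.0294). It was called with 1 of 6 libraries left out, the other 5 giving adjusted p from 0.0561 to 0.119. The keratinocyte sum was 11.5 to 24.5 in 1.5M KO and 244.9 to 755.1 in P5 KO, and its part in the Hspb1 result was not tested. Of 13 tested genes of mitochondrial proteostasis, a list that holds Hspd1 and Hspe1, 0 were called in either knockout comparison and only Hspd1 with age. Of 10 tested genes of proteotoxic and oxidative stress, 0 were called in either knockout comparison. With age Sqstm1, an autophagy receptor (log2 fold change 1.52, adjusted p = 0.0243 by limma), rose in KO, but not without 1.5M KO library 2 or 3 or P5 KO library 1 or 3 (adjusted p up to 0.143). The redox genes Srxn1 (1.68, adjusted p = 0.0483 by limma) and Txnrd1 (1.70, 0.0275) rose in wt. Srxn1 was not called with any 1 of the 6 libraries left out (adjusted p 0.0886 to 0.137), and Txnrd1 not without library 1 or 3 of 1.5M wt or of P5 wt (up to 0.128). Srxn1 and Txnrd1 each held in 6 of 10 other settings, and Sqstm1 in 7. Hsf1, the master factor of the heat shock response, averaged 0.505 over the 12 libraries, and 0 of the 3 tested genes of heat shock factors and their regulators were called in any of the 4 comparisons between groups.

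**Figure D4:**
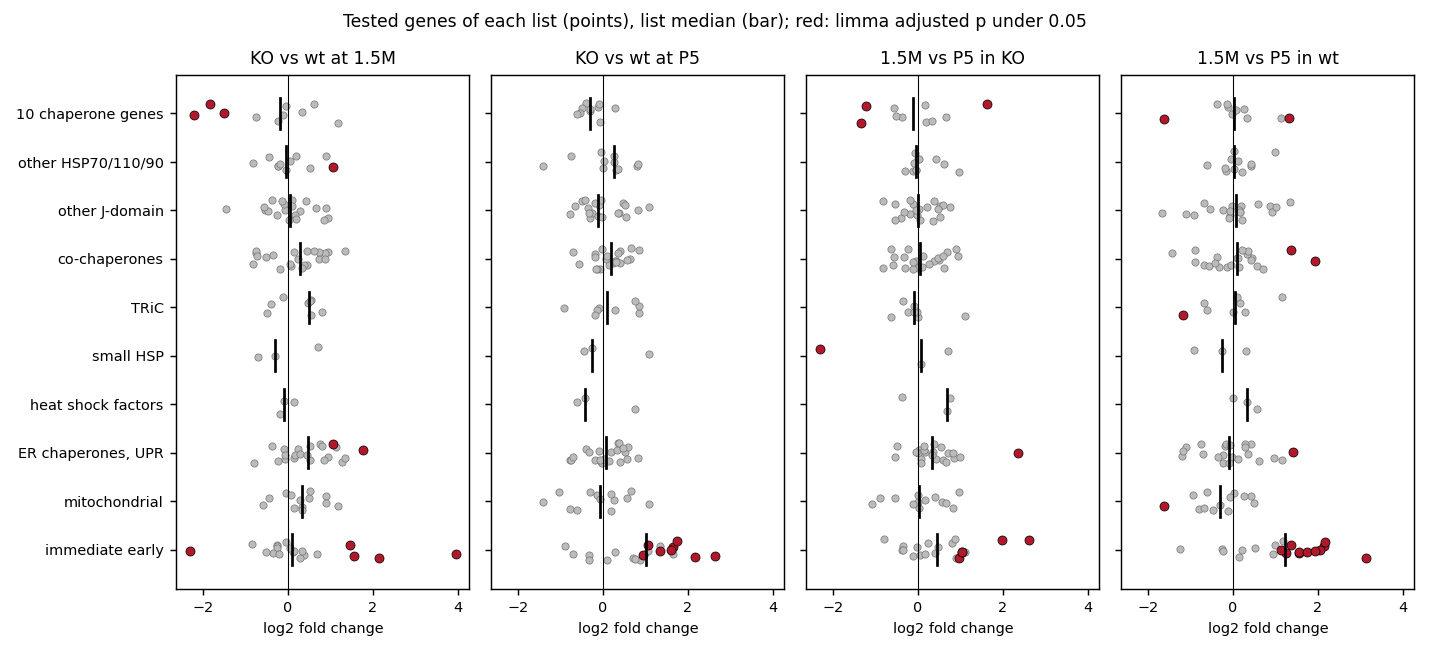
Log2 fold change of every tested gene in the 10 chaperone genes and in 9 related lists (points), with the list median (bar), in the 4 comparisons between groups. Red points have a limma adjusted p under 0.05. Immediate early genes lie to the right in KO against wt at P5 and in 1.5M against P5 in wt, with list medians of 1.01 and 1.22, where the 10 chaperone genes have medians of -0.30 and 0.03.

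Immediate early genes, which are transcribed within minutes of a stimulus and are known to be raised by cell handling, were measured beside the chaperones. The 20 genes listed summed to 639 to 711 in 1.5M KO and 595 to 817 in 1.5M wt, which overlapped, and to 342 to 444 in P5 KO and 201 to 299 in P5 wt, which did not. In 1.5M KO 4 of the 20 were called higher and 1 lower by limma, against 3.24% and 2.04% of all genes. Hspa1a and Hspa1b were called lower there. The 2 sets were not tested against each other. Socs3, an inhibitor of cytokine signalling, had 20.1 ± 2.17 in 1.5M KO and 0.477 ± 0.826 in 1.5M wt (log2 3.96 with SE 0.41 and adjusted p = 6.32e-07). That wt mean is below 0.831, the scaled count of 3 molecules over the 3 libraries of the group. Btg2, an antiproliferative gene called lower, had 10.02 ± 2.21 in 1.5M KO and 53.3 ± 9.85 in 1.5M wt (log2 -2.30 with SE 0.38 and adjusted p = 0.000293). The others called higher were Klf2 (2.15), Klf6 (1.57) and Dusp1 (1.47). At P5 8 of the 20 were higher in KO and 0 lower, against 1.15% of all genes higher and 0.649% lower. They were led by Klf2 (2.64), Dusp1 (2.17), Gadd45b (1.76) and Egr1 (1.66). Of the 10 chaperone genes 0 were called at P5, which is near the 1.8% of all genes. Of those 8, Dusp1 held with each of the 6 libraries left out, and Fos, Jund, Klf6 and Socs3, the others of the 8, held with 1, 2, 2 and 1 of 6 (adjusted p up to 0.195, 0.0888, 0.208 and 0.205). In wt 11 of 20 rose with age, against 2.36% of all genes, led by Fosb (3.14), Nr4a1 (2.18), Egr1 (2.14) and Btg2 (2.05). The wild-type age values of Hspa1a and Hspa1b were -0.11 and -0.01. In KO 5 of 20 rose with age, against 1.72% of all genes, among them Fosb (2.63), Atf3 (1.99) and Dusp1 (1.05), and Hspa1a and Hspa1b fell. Dusp1 with age in KO was not called without 1.5M KO library 2 or 3 or P5 KO library 3 (adjusted p up to 0.106). Klf2 at P5 was lost without P5 KO library 1 or 3 or P5 wt library 2 or 3 (adjusted p up to 0.0996), Gadd45b without P5 KO library 2 or P5 wt library 2 or 3 (up to 0.0857), Egr1 at P5 without P5 KO library 1 or 3 or P5 wt library 3 (up to 0.109) and Klf2 at 1.5M without 1.5M KO library 1 or 3 or 1.5M wt library 1 (up to 0.0910).

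Of 10 metabolic and reference genes, Actb, a cytoskeletal gene, and B2m, the light chain of MHC class I, were called higher in 1.5M KO (log2 fold changes 0.46 and 0.99, limma adjusted p = 0.00205 and 5.31e-05). B2m was called lower in P5 KO (-0.64, adjusted p = 0.0205 by limma), a call lost without P5 KO library 2 or P5 wt library 1, 2 or 3 (up to 0.0843). With age Actb (0.35) and B2m (0.74) were higher in KO, and B2m (-0.90) and Gapdh, a glycolytic enzyme (-0.95), were lower in wt. Of these age calls, both of B2m held with each library left out, while Actb was lost without library 1 or 2 of P5 KO or 2 or 3 of 1.5M KO (up to 0.185) and Gapdh without library 1 or 2 of either wt group (up to 0.0913).

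Marker levels differed between the genotypes at both ages. The 7 Langerhans cell genes summed to 49.7 to 67.1 in 1.5M KO and 429.4 to 520.6 in 1.5M wt. At P5 they summed to 9.60 to 15.9 in KO and 61.8 to 77.2 in wt. By limma 6 of the 7 were called lower in KO at each age, against 2.04% of all genes at 1.5M and 0.649% at P5. At P5 0 of the 10 chaperone genes were called, which is near the share of all genes, 1.8%. The macrophage and monocyte sum was 362.8 to 395.3 in 1.5M KO and 7.55 to 12.9 in 1.5M wt. The part of these markers' cells in the lower Hspa1a, Hspa1b and Dnaja1 was not tested. The genes most alike to the members were ranked over 1189 genes with a mean of at least 5 by Pearson correlation with the mean standardized log2 level of the 10, across the 12 libraries. The 8 highest were Rplp2 (0.91), Ltc4s (0.91), Tsc22d3 (0.86), Vasp (0.85), Rpl23a (0.84), Ndufa6 (0.84), Cldn1 (0.83) and Cst3 (0.83). Among the members themselves the correlation with that mean ran from 0.71 for Hspa1b and 0.70 for Dnaja1 to -0.24 for Hspa5 and -0.37 for Hspd1. All points share the libraries, the scaling and the 4 groups, and Ltc4s and Cldn1 are among the listed Langerhans cell genes.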

How the data were processed

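RNA was measured in 12 libraries of 100 sorted mouse epidermal cells, with ERCC spike-in RNA, an oligo-dT primer carrying a molecular barcode, template switching and PCR, per the labels' protocols. Per the submitters' processing notes, reads were placed on mm10 and TopHat2 was among the tools, and which annotation, counter, strand setting and scaling were applied is not given in the sources used here. As deposited, the signal of the authors is a molecule count per gene symbol scaled to 37092 per library, as read from the values: 92.6% to 94.9% of values above 0 were whole multiples of 1 step within a tolerance of 0.01. The step gave approximate molecules and depth, 30913 to 77419 per library, but no count test was run, since too many values were fractions. Of the planned fits, for counts and for normalized values, the second therefore applied. No row of the table is spike-in RNA (0 entries).

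Values were fitted as log2(scaled count + 1) with limma 3.58.1 in R 4.3.3 (mean-variance trend, 4 group means, no covariate), over 10023 genes above 0 in at least 3 libraries. Fold changes on this scale understate those of low genes. Each comparison had two-sided p-values adjusted by Benjamini-Hochberg over its 10023 genes, called under 0.05. All adjusted p-values are from this fit or its alternatives, and counting intervals are exact and cover counting error only. Scripts were checked on simulated data. Alternatives were pseudocounts of 0.1 and 10, no filter, median-of-ratios scaling, voom on approximate molecules, thinning to 30797 molecules, the 6 libraries of a comparison alone, the replicate number as a block, Hspa1a and Hspa1b summed, removal of keratinocyte, neutrophil and erythroid markers, and leaving out each library.

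Group and replicate come from sample titles. All members were named. The result of 1 listed gene is not reported here. From each gene list, cell marker lists aside, the genes past the threshold were named, up to 4 per direction and comparison by fold change, with up to 2 others by mean level in some lists. Fos, Jund, Klf6 and Socs3 at P5 fall outside this rule and were named after their values were seen. The members, lists and rules were chosen with earlier results of these data known. The listed genes Trdc, Trbc2, Adgre1, Ly6g, Hbb-bs and Hbb-bt had no matching symbol in the table used here. Coordinates come from GENCODE M21 and promoter sequence from RefSeq, both on GRCm38. Libraries with the same replicate number did not deviate together (correlation of deviations -0.02 to 0.02), so the number was not treated as pairing.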

Additional observations from a re-analysis of the deposited data

Results flagged for a closer look

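No heat shock chaperone gene met a rule for a closer look, and 3 genes of the related lists did, each because the knockout effect differed between the ages in the test of that difference. For Actb, a cytoskeletal reference gene, the difference was 0.52 on the log2 scale (limma adjusted p = 0.0335), with 580 ± 47.3 in 1.5M KO and 420 ± 7.24 in 1.5M wt and with 453 ± 26.8 in P5 KO and 471 ± 32.3 in P5 wt. For B2m, the light chain of MHC class I, the difference was 1.63 (adjusted p = 2.62e-05), with 167 ± 2.82 in 1.5M KO and 83.9 ± 12.8 in 1.5M wt and with 100.4 ± 13.7 in P5 KO and 156 ± 7.29 in P5 wt. For Socs3 the difference was 2.36 (adjusted p = 0.0340), with 20.1 ± 2.17 in 1.5M KO and 0.477 ± 0.826 in 1.5M wt and with 8.80 ± 1.05 in P5 KO and 2.47 ± 1.66 in P5 wt. The 1.5M wt mean of Socs3 is below 0.831, the scaled count of 3 molecules over the 3 libraries of that group. Its log2 fold change at 1.5M ran from 1.52 to 6.34 over the 10 other settings. The B2m difference held with each of the 12 libraries left out, that of Actb with 3 and that of Socs3 with 2 of them, the highest adjusted p being 0.115 and 0.0957.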

How the results depend on the processing

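Of 845 recomputed member values, 780 kept direction and side of the threshold, 20 lost a call, 9 gained one and 36 changed sign, none of the last called in either fit; the cause was not tested. Median-of-ratios scaling turned Hspe1 at P5 to 0.0071 and, with age in wt, Hspa1a to 0.11, Hspa1b to 0.21 and Hsp90aa1 to 0.069. It gave a median over all genes of -0.11 with age in wt, against -0.22, with 286 genes higher and 183 lower, against 237 and 285. Voom gave medians of -0.15 at 1.5M, -0.42 and -0.36 with age in KO and wt and -0.10 in the difference, against 0.09, -0.06, -0.22 and 0.13. Thinning turned Hspd1 at P5 to 0.11, Hspa1b and Hsp90aa1 with age in wt to 0.040 and 0.025, Hspd1 with age in KO to -0.21 and the Dnajb1 difference to -0.56. With a library left out, values that changed sign ranged from -0.18 to 0.038 (Hsp90ab1, P5), -0.71 to 0.091 (Dnajb1, P5), -0.19 to 0.13 (Hspe1, P5), -0.34 to 0.33 (Dnajb1, 1.5M), -0.31 to 0.17 (Hspa1a, age in wt), -0.27 to 0.26 (Hspa1b, age in wt), -0.42 to 0.16 (Hsp90aa1, age in wt), -0.16 to 0.38 (Dnajb1, age in wt), -0.057 to 0.74 (Dnajb1, age in KO), -0.14 to 0.48 (Hspd1, age in KO), -0.14 to 0.078 (Hsp90ab1, difference) and -0.14 to 0.66 (Dnajb1, difference).

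Members called were 3 at 1.5M, 0 at P5, 3 with age in KO, 2 with age in wt and 0 in the difference. Leaving out a library gave 3 to 3, 0 to 0, 2 to 3, 1 to 2 and 0 to 1. Thinning gave 2 at 1.5M, 2 with age in KO and 1 with age in wt, where 362, 186 and 289 of 8941 genes were called. Voom and a pseudocount of 10 gave 1 each in the difference, where 348 and 234 of 10023 genes were called. With age in KO, pseudocounts of 0.1 and 10, median-of-ratios scaling and the 6 libraries alone gave 2. The first 3 of these settings called 223, 376 and 338 of 10023 genes, and the last called 237 of 8408. With age in wt, a pseudocount of 10 and median-of-ratios scaling gave 3, where 485 and 469 of 10023 genes were called. Summing Hspa1a and Hspa1b gave 2 of 9 at 1.5M, where 526 of 10022 genes were called. The same setting gave 2 of 9 with age in KO, where 313 were called. All genes called at P5 were 180 (1278 unadjusted), against 92 with a pseudocount of 0.1, 118 with no filter, 46 thinned and 72 to 123 with a library left out. At 1.5M there were 529 (325 higher, 204 lower), against 866 with voom (470 and 396) and 359 to 386 with a library left out. With age in KO there were 315 (172 higher, 143 lower), against 899 with voom (253 and 646), 186 thinned and 169 to 246 with a library left out; in wt 522, against 289 thinned and 346 to 389. The difference had 200 (132 higher, 68 lower), against 133 with a pseudocount of 0.1, 348 with voom (188 and 160), 97 thinned and 141 to 193 with a library left out. The replicate block changed no member count and gave 508 genes at 1.5M, 147 at P5, 315 and 504 with age in KO and wt, and 195 in the difference. With 8 to 21 molecules of Dnajb1 and 3 to 20 of Hspd1 per group, depth limits both.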
